A study of Mus musculus with 12 samples.

Results

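The sites described here were CTCF binding sites found in all 3 wild-type organs and lost from exactly 1 of 2 organs, brain or lung, in homozygous mutant embryos. They were chosen by the peak lists themselves. The regions of 6 peak lists were merged wherever they overlapped by at least 1 bp, a merged site was taken to carry a list if any region of that list overlapped it, and members carried the wild-type brain, heart and lung lists and lacked either the mutant brain or the mutant lung list. Of 56248 merged sites, 19565 were common to the 3 wild-type lists and 1310 of these (6.70%) were members. In 636 the mutant brain peak was missing and the mutant lung peak was present (brain-lost sites), and in 674 the reverse held (lung-lost sites). With the lists of each organ cut to equal length the counts fell to 236 and 118. The mutant heart list was among the 6 that were merged, but the choice did not ask for its presence or absence. A member could thus carry it or lack it. For comparison, 17632 common sites were kept in mutant brain and mutant lung (kept sites) and 623 were lost from both.

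The study profiled CTCF by chromatin immunoprecipitation and sequencing in brain, heart and lung tissue of mouse embryos at E18.5 (embryonic day), all of C57BL/6 background. One group was wild type, and the other was homozygous for the Ctcf R567W allele (Ctcf R567W/R567W), a CRISPR/Cas9 knock-in that puts a tryptophan in place of an arginine of CTCF in all cells, not in 1 organ only. Human HEK293T chromatin had been added to each preparation as a reference, and the peaks were those on the mouse genome, build mm10. There was 1 library for each organ and genotype, so no difference between genotypes had a replicate check, and no p-value is given. Intervals below are Wilson 95% intervals for a share and Newcombe 95% intervals for a difference of shares. They cover counting error over sites only, and sites of 1 library are not replicates. A peak list holds no gene expression, so the labelled organ could not be checked against marker genes.

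CTCF is a DNA-binding protein with a row of zinc fingers. The central fingers read the core motif found at most CTCF sites, and the last fingers, where the mutated arginine lies, can touch a second short element on the 5′ side of the core, called the upstream motif. At many sites CTCF stops the cohesin ring as it extrudes chromatin loops, and in this way CTCF sites form the anchors of loops and the borders of topological domains. CTCF sites are found in most tissues at the same places, with strength set in part by how well the sequence fits the motif and by DNA methylation at CpG pairs within it.

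The sequences below, read from the reference genome, belong to the members with the highest wild-type fold enrichment. They are shown for the core motif and for the bases before it, since both differed between members and kept sites. Of the 5 strongest members of each class, the 1 with no core motif call is not shown. Each runs 5′ to 3′ on the strand of the motif. The long block of 19 capitals is the core motif call, and a second block of 9 capitals, where there is one, is a match to the upstream motif TGCAGTNCC with at most 2 mismatches within 30 bp before the core. 4 brain-lost and 4 lung-lost sites follow.
Brain-lost, Anks1 intron, chr17:28048636-28048694, minus strand: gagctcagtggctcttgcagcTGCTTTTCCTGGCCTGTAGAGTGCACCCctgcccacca
Brain-lost, near Atxn1, chr13:45977102-45977160, minus strand: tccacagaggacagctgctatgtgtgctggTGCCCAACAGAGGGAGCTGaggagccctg
Brain-lost, near 1600014C23Rik, chr17:45718476-45718534, minus strand: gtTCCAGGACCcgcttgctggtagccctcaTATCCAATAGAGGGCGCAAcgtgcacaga
Brain-lost, near Postn, chr3:54353417-54353475, plus strand: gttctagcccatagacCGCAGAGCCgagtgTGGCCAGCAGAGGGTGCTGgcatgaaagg
Lung-lost, Iqcf3 intron, chr9:106532026-106532084, plus strand: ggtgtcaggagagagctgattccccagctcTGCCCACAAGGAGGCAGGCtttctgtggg
Lung-lost, Tnni3k intron, chr3:154817866-154817924, plus strand: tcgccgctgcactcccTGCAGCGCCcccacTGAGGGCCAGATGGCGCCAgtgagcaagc
Lung-lost, Masp1 intron, chr16:23452627-23452685, plus strand: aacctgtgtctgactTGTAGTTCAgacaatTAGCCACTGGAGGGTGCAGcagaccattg
Lung-lost, near Mrps14, chr1:160184695-160184753, minus strand: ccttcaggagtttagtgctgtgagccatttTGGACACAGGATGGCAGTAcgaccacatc
At the Anks1 site the upstream match ran straight into the core, so its 9 capitals and the 19 of the core form 1 block. At the sites near Postn and in Tnni3k the gap between the elements was 5 bp, which was the commonest gap in every class.

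The values of a site are given as its summit pileup, the number of read fragments covering the summit of the peak, which was recovered as a whole number from the fold enrichment and p-value that the peak caller had written. A site absent from a list has no pileup there, and its level below the calling threshold is not known. The 6 lists held between 11515 regions (mutant heart) and 44386 regions (wild-type lung), and 21059 in wild-type heart. Total read counts are not written in the lists. An estimate of depth, the background at the low end of a list (its 5th percentile) divided by the length of its shortest region, ran from 7.14 fragments per kb in wild-type heart to 9.27 in mutant brain.

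Among the strongest brain-lost sites, the one in an intron of Anks1, an adaptor protein with ankyrin repeats, had pileups of 95 in wild-type brain, 49 in wild-type heart and 204 in wild-type lung, against 19 in mutant lung. The site closest to Atxn1, the ataxin-1 gene, had 75, 57 and 255 in the 3 wild-type lists and 11 in mutant lung. In both, the mutant lung peak that kept the site out of the group lost from both organs was small. The site in an intron of Cobl, an actin nucleator of neurons, had no core motif call, with 90, 62 and 189 in wild-type brain, heart and lung and 38 in mutant lung. The site 7655 bp from the start of Postn, the matrix protein periostin, had 49, 46 and 144 in the same order and 44 in mutant lung, and the site near 1600014C23Rik had 61, 40 and 153 and 40. None of the 5 sites had a mutant heart peak, and in all 5 the mutant lung pileup was below each wild-type lung pileup of the group. These sites and the lung-lost sites below were picked for high wild-type fold enrichment. Lower mutant pileups are thus in part tied to the choice.

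Among the strongest lung-lost sites, the one in an intron of Tnni3k, a kinase of heart muscle, kept most of its brain peak, with pileups of 167 in wild-type and 126 in mutant brain, beside 52 in wild-type heart and 171 in wild-type lung. The site 10504 bp from the start of Mrps14, a mitochondrial ribosomal protein, had 103 and 66 in wild-type and mutant brain, 33 in wild-type heart and 104 in wild-type lung. The other 3 were left with a smaller brain peak. The site in an intron of Iqcf3 went from 122 in wild-type to 28 in mutant brain, with 40 in wild-type heart and 215 in wild-type lung. The site in an intron of Masp1, a protease of the complement system, had 77 and 25 in wild-type and mutant brain, 44 in wild-type heart and 148 in wild-type lung. The fifth, 24047 bp from the start of Chd7, a chromatin remodeller, had no core motif call and had 58 and 21 in wild-type and mutant brain, 49 in wild-type heart and 225 in wild-type lung. Again none of the 5 had a mutant heart peak.

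**Figure D1:**
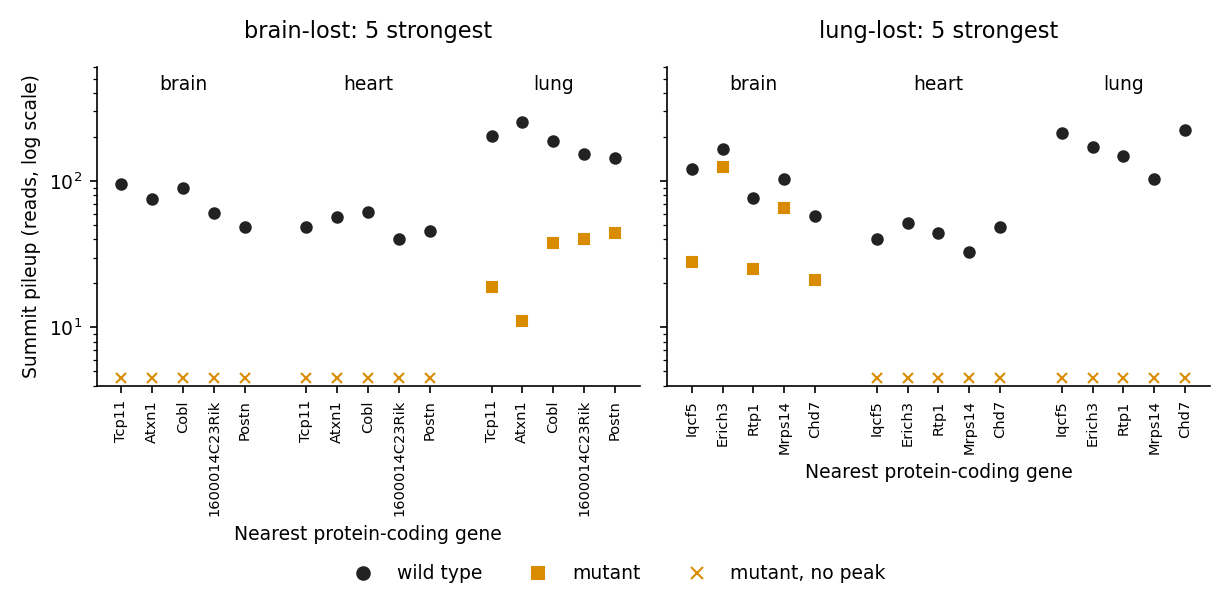
Summit pileup (reads, log scale) of the 5 strongest brain-lost sites (left) and the 5 strongest lung-lost sites (right) in wild-type (circles) and mutant (squares) brain, heart and lung, named by the nearest protein-coding start site; crosses mark a list with no peak and carry no value. All 10 sites lack a mutant heart peak, and in the organ that kept its peak the mutant pileup is below the wild-type pileup at every site. The sites were picked for high wild-type fold enrichment, so a lower mutant pileup is in part tied to the choice.

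The presence of a mutant heart peak was a measurement that the choice of members did not use, apart from the merging of regions. Over all common sites, 46.3% lacked a mutant heart peak, while 6.43% lacked a mutant brain peak and 6.63% a mutant lung peak, the last 2 being the values from which members were drawn. A mutant heart peak was missing at 594 of 636 brain-lost sites (93.4%, 91.2 to 95.1) and at 656 of 674 lung-lost sites (97.3%, 95.8 to 98.3), compared with 7190 of 17632 kept sites (40.8%). The difference from kept sites was 52.6 percentage points (50.3 to 54.4) for brain-lost and 56.6 points (54.9 to 57.8) for lung-lost sites. Brain-lost sites thus lacked the heart peak slightly less often than lung-lost sites, by a difference of -3.93 points (-6.34 to -1.67), which included 0 with lists of equal length (-5.51 points, -11.1 to 1.25). Sites lost from both brain and lung lacked it in 98.9%. Most members were therefore missing from 2 of the 3 mutant lists, and 42 brain-lost and 18 lung-lost sites were missing from 1 list only.

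The wild-type heart peak was smaller at members, with a median pileup of 23 at brain-lost, 19 at lung-lost and 31 at kept sites, and its part in the missing heart peak was not tested other than by comparing sites of like strength. For this, common sites were put into 5 equal groups by their mean percentile rank of fold enrichment in the 3 wild-type lists, 1 being the strongest. The share of kept sites without a mutant heart peak rose from 13.0% in the strongest group to 74.96% in the weakest. Over the same groups the share stayed between 88.6% and 100% at brain-lost sites and between 92.3% and 98.4% at lung-lost sites. With kept sites reweighted to the members' mean strengths over the 3 organs, the difference was 34.8 points (32.4 to 36.7) for brain-lost and 34.6 points (32.8 to 35.9) for lung-lost sites. The interval of the smaller difference still excluded 0. Fold enrichment in wild-type lung was held down by a raised local background, which had a median of 3.40 times the lowest background of the list at brain-lost, 2.55 times at lung-lost and 4.93 times at kept sites, against 1.00 to 1.22 times in wild-type brain and heart. With strength ranked by summit pileup instead, a choice made after seeing the data, the differences were 29.3 points (26.9 to 31.2) and 28.9 points (27.1 to 30.3).

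**Figure D2:**
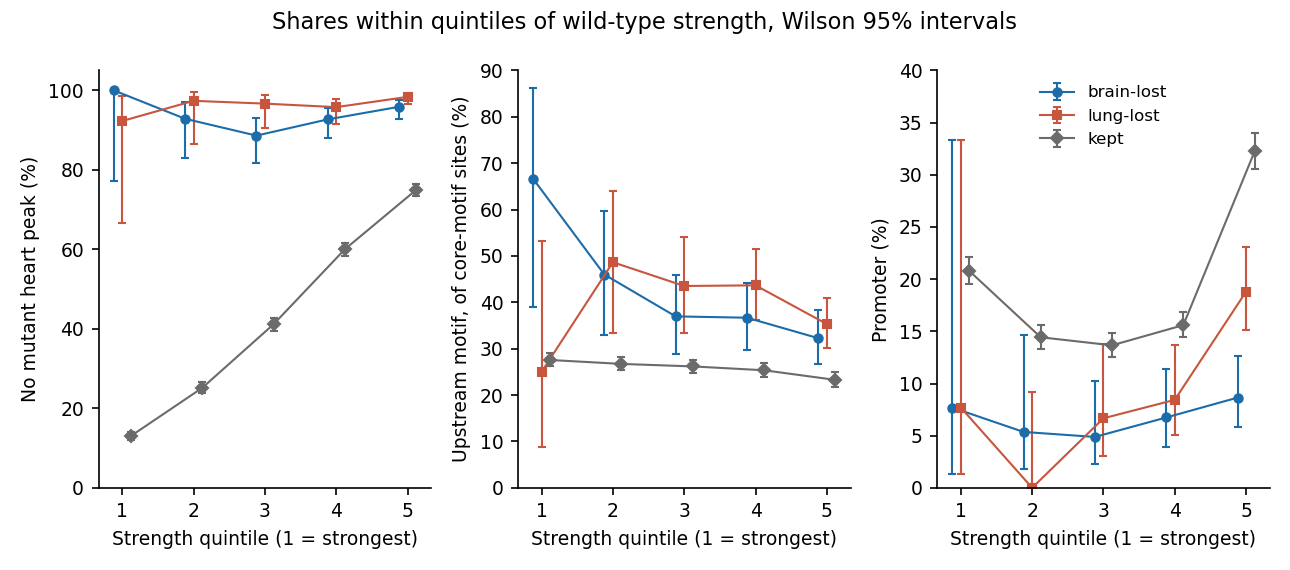
Share of sites without a mutant heart peak (left), with the upstream motif among core-motif sites (middle) and in a promoter (right), in %, against the strength group of the common sites (1 the strongest), for brain-lost, lung-lost and kept sites; bars are Wilson 95% intervals. The heart share of members lies above that of kept sites in all 5 groups, and the first group holds 13 members of each class and gives wide intervals.

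The members that kept a mutant heart peak were few, and a value exists only where a peak passed the caller, so these are given as a description. At Rgsl1, 599 bp from the start site, a brain-lost site had pileups of 58 in wild-type brain, 27 and 21 in wild-type and mutant heart, and 125 and 49 in wild-type and mutant lung. A brain-lost site 11746 bp from Ap4e1, which encodes a subunit of the AP-4 vesicle adaptor, had 60 in wild-type brain, a heart pair of 51 and 30, and a lung pair of 158 and 41 (wild type first). In an intron of Lmo7, a LIM-domain protein of cell junctions, a brain-lost site had 62 in wild-type brain. Its wild-type and mutant pileups were 37 and 18 in heart, then 116 and 54 in lung. At these 3 sites each mutant pileup that existed was below its wild-type counterpart. A lung-lost site in an intron of Lamb3, a laminin subunit of epithelial basement membranes, had a brain pair of 71 and 42, a heart pair of 56 and 35, and 66 in wild-type lung. A lung-lost site far from genes, 486661 bp from the nearest protein-coding start at Fam135b, had a brain pair of 133 and 78, a heart pair of 29 and 28, and 79 in wild-type lung. Its heart pileups were nearly the same in both genotypes. Members with a mutant heart peak had stronger wild-type heart peaks than the other members, with medians of 30 against 23 at brain-lost and 24 against 19 at lung-lost sites.

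The upstream motif was more frequent at members than at kept sites. It was counted only where a core motif was called, within 30 bp on the 5′ side and on the same strand, as TGCAGTNCC with at most 2 mismatches. It was found at 218 of 601 brain-lost sites (36.3%) and 234 of 595 lung-lost sites (39.3%), against 26.0% of kept sites. The differences from kept sites were 10.3 points (6.46 to 14.2) and 13.3 points (9.42 to 17.4). Brain-lost and lung-lost sites differed by -3.05 points, with an interval that included 0 (-8.52 to 2.44). Sites lost from both organs had it in 44.8%. The same letters in a window of equal length on the 3′ side of the core, where the element does not belong, were found at 14.5% of brain-lost, 13.3% of lung-lost and 12.8% of kept sites, and these shares did not differ beyond counting error.

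With at most 1 mismatch, the upstream motif was found at 16.3% of brain-lost, 17.5% of lung-lost and 8.61% of kept core-motif sites, and in the mirrored window at 1.997%, 1.34% and 1.46%. Among these closer matches the gap to the core was 5 bp in 76 of 98 brain-lost sites, 84 of 104 lung-lost sites and 978 of 1471 kept sites, and 6 bp in most of the rest. With the gap fixed at 5 bp and 2 mismatches allowed, 20.6%, 23.0% and 12.2% of brain-lost, lung-lost and kept sites had the motif. Read letter by letter at this gap, all 8 fixed letters of the motif had a higher share at brain-lost and lung-lost sites than at kept sites, but for brain-lost sites the intervals of letters 3, 5 and 6 overlapped those of kept sites, and for lung-lost sites that of letter 5. The first letter T stood at 39.9% of brain-lost and 42.0% of lung-lost sites against 30.4% of kept sites. The second letter G stood at 46.8%, 50.1% and 39.6%, and the eighth letter C at 55.9%, 52.9% and 46.5%. The third letter C (37.4%, 40.3% and 35.5%) and the fifth letter G (29.1%, 29.4% and 26.9%) differed less.

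The difference in the upstream motif did not shrink when sites of like wild-type strength were compared, with 11.5 points (7.62 to 15.5) for brain-lost and 14.8 points (10.8 to 18.9) for lung-lost sites. In the strongest of the 5 groups the motif was found at 8 of 12 brain-lost but 3 of 12 lung-lost sites, the latter below the 27.6% of kept sites, with an interval from 8.89% to 53.2%. In the other 4 groups both classes lay above kept sites. Within brain-lost sites the motif was found at 210 of 562 sites without a mutant heart peak (37.4%) and 8 of 39 with one (20.5%), a difference of 16.9 points (1.33 to 27.4). Within lung-lost sites the shares were 39.6% and 29.4%, the latter from 5 of 17 sites, and the difference of 10.2 points included 0 (-13.8 to 26.8). Kept sites had it in 29.96% without and 23.4% with a mutant heart peak, a difference of 6.59 points (5.23 to 7.95).

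**Figure D3:**
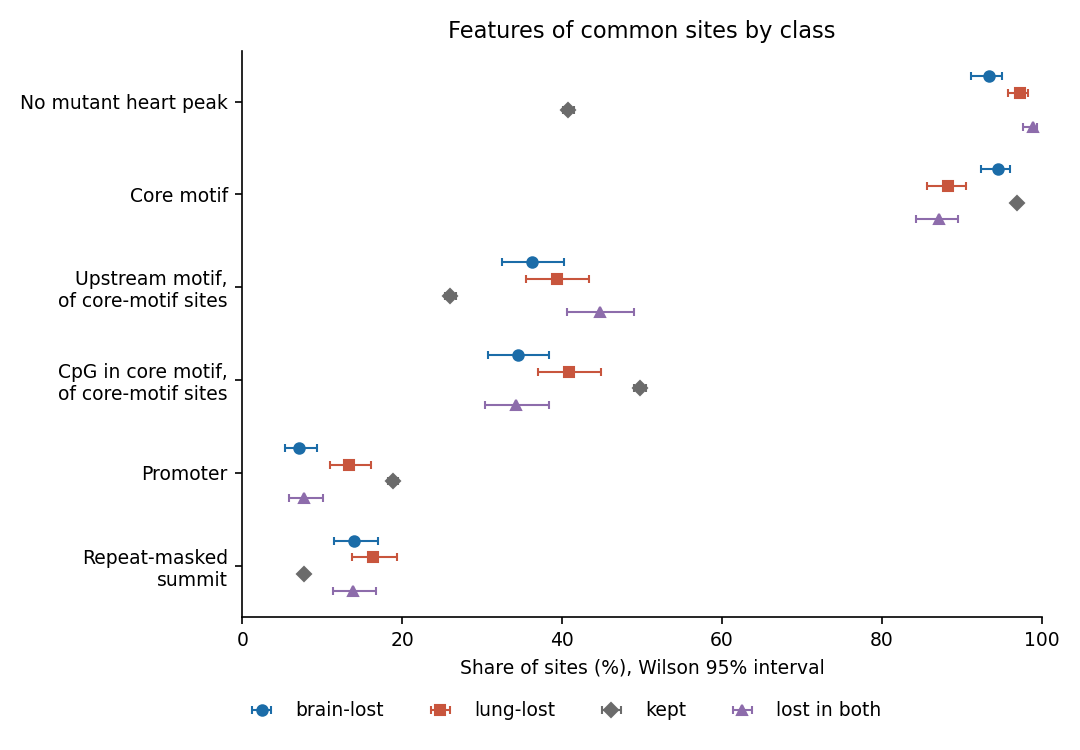
Share of sites (%) with each feature, for brain-lost, lung-lost, kept and lost-in-both sites; points are shares and bars Wilson 95% intervals. The upstream motif and repeat-masked summits are more frequent at members than at kept sites, while promoters and CpG pairs in the core motif are less frequent. Sites lost from both organs differ from kept sites in the same directions.

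The core motif itself was called at 94.5% of brain-lost, 88.3% of lung-lost and 96.9% of kept sites, within 100 bp of the wild-type heart summit. The difference from kept sites was -2.44 points (-4.51 to -0.898) for brain-lost and -8.66 points (-11.3 to -6.43) for lung-lost sites, and brain-lost exceeded lung-lost sites by 6.22 points (3.20 to 9.27), or by 1.69 points (-3.19 to 8.10) with lists of equal length. Centred on the wild-type brain or lung summit instead, the lung-lost difference was smaller, at -6.74 or -6.50 points. Brain-lost minus lung-lost was then 4.32 or 4.33 points, and each interval still excluded 0. In a flanking window of the same size the motif was called at 11.5%, 11.4% and 13.9%, which is the rate the genome gives near such sites. Compared with kept sites of like strength, the brain-lost difference was -0.0570 points and its interval included 0 (-2.17 to 1.54), while the lung-lost difference was -5.30 points (-8.02 to -3.00). The lower share at lung-lost sites lay mostly in the weakest strength group, where 82.6% of them and 90.2% of kept sites had a core motif. This group held 54.5% of all lung-lost sites. At the stricter threshold the shares were 72.6%, 69.0% and 88.4%, and brain-lost no longer differed from lung-lost sites beyond counting error.

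Where a core motif was called, it fitted the matrix less well at members, with a median log2-odds score of 15.3 at brain-lost, 15.6 at lung-lost and 18.6 at kept sites. The matrix was learned from the strongest wild-type brain peaks, most of which were not members, so lower scores at weaker sites are built in to some extent. Of the 19 columns of the motif, the favoured letter was less frequent than at kept sites, with an interval that excluded 0, in 8 columns at brain-lost and 10 at lung-lost sites, and more frequent in 1 column for each class. The G of column 10 was present at 98.7% of brain-lost, 98.2% of lung-lost and 99.3% of kept sites, and the lung-lost difference from kept sites was -1.10 points (-2.54 to -0.274). The largest falls were in column 7 (C, 48.9% of brain-lost against 59.5% of kept sites) and column 11 (G, 44.0% of lung-lost against 58.2% of kept sites). A second core motif call in the window was also less frequent, at 20.1% of brain-lost, 18.2% of lung-lost and 25.2% of kept core-motif sites.

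A CpG pair, the unit of DNA methylation, lay within the core motif at 34.4% of brain-lost and 40.8% of lung-lost sites, against 49.8% of kept sites. Sites lost from both organs had one at 34.3%. Brain-lost minus lost in both was 0.188 points (-5.32 to 5.67), which included 0, and lung-lost minus lost in both 6.59 points (0.950 to 12.1). The differences from kept sites were -15.3 points (-19.1 to -11.4) and -8.93 points (-12.9 to -4.86), and brain-lost lay below lung-lost sites by a difference of -6.40 points (-11.8 to -0.907). Compared with kept sites of like strength, the differences were -13.9 points (-17.7 to -9.92) and -8.03 points (-12.1 to -3.89), although within single strength groups the share of members was above that of kept sites in the strongest group for brain-lost sites (58.3% against 57.4%) and in groups 2 and 3 for lung-lost sites (54.1% against 49.2% and 45.9% against 45.7%). With strength ranked by wild-type pileup instead, the differences were -11.3 points (-15.2 to -7.27) and -4.92 points (-8.98 to -0.743). With lists of equal length the lung-lost difference from kept sites was -7.11 points and that between brain-lost and lung-lost sites -7.95 points, and both included 0. The favoured letters of columns 15 and 16 of the motif, C and G, form a CpG pair. The C stood at 74.5% of brain-lost, 75.8% of lung-lost and 83.6% of kept sites. The G stood at 43.3%, 49.2% and 51.6%, and its lung-lost difference included 0. Sites were not matched for core score, so the CpG share is not separate from the poorer fit. Methylation was not measured in these files. Within 100 bp of the summit on either side, the median GC content was 48.8% at brain-lost, 47.8% at lung-lost and 50.2% at kept sites.

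Members, like sites lost from both organs, lay away from promoters. The summit was within 1 kb of an annotated start site at 45 brain-lost sites (7.08%) and 90 lung-lost sites (13.4%), against 18.8% of kept sites. Sites lost from both organs had 7.70%. Brain-lost minus lost in both was -0.629 points (-3.57 to 2.29), which included 0, and lung-lost minus lost in both 5.65 points (2.31 to 8.98). The differences from kept sites were -11.8 points (-13.6 to -9.43) and -5.49 points (-7.92 to -2.65), and brain-lost sites had fewer promoters than lung-lost sites by a difference of -6.28 points (-9.56 to -3.01). With the lists of an organ cut to equal length, which left 236 brain-lost and 118 lung-lost sites, that last difference was 0 points (-6.27 to 4.84) and the lung-lost difference from kept sites was -11.3 points (-14.4 to -5.48). Compared with kept sites of like strength the differences were -15.1 points (-17.0 to -12.7) for brain-lost and -11.1 points (-13.6 to -8.14) for lung-lost sites. Brain-lost sites were more often intergenic (45.4%) than lung-lost sites (40.1%) and kept sites (36.3%). Introns held 43.4% of brain-lost and 40.7% of lung-lost sites, and exons 4.09% and 5.93%, and these shares did not differ from those of kept sites (39.5% and 5.26%) beyond counting error. The median distance to a start site was 11540 bp at brain-lost, 12421 bp at lung-lost and 8258 bp at kept sites. At the far end, 6.08% of lung-lost sites lay over 100 kb from any start site, against 1.42% of brain-lost and 1.96% of kept sites, a difference of -4.67 points between brain-lost and lung-lost (-6.84 to -2.66). Sites lost from both organs lay that far away at 4.49%, and lung-lost minus lost in both was 1.59 points (-0.893 to 4.07), which included 0.

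Promoter members named here were the 3 strongest of each class after the sites given above. Among brain-lost sites, besides that at Rgsl1, one lay 61 bp from the start of Sbk2, with pileups of 50 in wild-type brain, 33 in wild-type heart, and 110 and 43 in wild-type and mutant lung. Another lay 164 bp from the start of Aox3, an aldehyde oxidase gene, with 48, 17, 91 and 31 in the same order. Among lung-lost sites, the one 24 bp from the start of Scn2a, a voltage-gated sodium channel of neurons, had the opposite order in brain from most members, with 98 in wild-type and 148 in mutant brain. Its fold enrichment over local background was nearly the same in both lists, 36.6 and 36.1, and it had 22 in wild-type heart and 73 in wild-type lung. The site 481 bp from the start of Adar, an RNA-editing deaminase, had 39 and 16 in wild-type and mutant brain, 26 in wild-type heart and 109 in wild-type lung. The site 950 bp from the start of Rbm46 had 50, 23, 29 and 81. The Adar site, like that in Tnni3k, carried an upstream motif with 1 mismatch at a gap of 5 bp.

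Summits of members fell more often in repeat-masked sequence, at 13.99% of brain-lost and 16.3% of lung-lost sites, against 7.70% of kept sites. The differences were 6.30 points (3.78 to 9.24) and 8.62 points (6.00 to 11.6), and the 2 classes did not differ beyond counting error (-2.33 points, -6.20 to 1.58). Sites lost from both organs had 13.8%, and neither class differed from them beyond counting error. With kept sites of like strength the differences fell to 3.59 points (1.03 to 6.56) and 5.0 points (2.30 to 8.07). The brain-lost difference included 0 when the lists of an organ were cut to equal length (1.34 points, -1.26 to 5.31) and when strength was ranked by pileup (2.51 points, -0.0745 to 5.50). Only uniquely mapped reads had been kept, and how well single repeats could be mapped was not measured here. Of 6 short motifs of other factors, each was found at under 2% of the sites of either class. GGGGCGGG, the SP-factor box, was searched on both strands and found at 0.786% of brain-lost, 1.63% of lung-lost and 3.27% of kept sites, and CCGGAAGT, the ETS box, at 0 brain-lost sites, 0.148% of lung-lost and 0.635% of kept sites, where the lung-lost difference included 0 (-0.664 to 0.209 points). AAGATGGCG, the YY1 motif, was found at 0 brain-lost sites, 0.890% of lung-lost and 0.647% of kept sites, and the last 2 shares did not differ beyond counting error, while brain-lost minus lung-lost was -0.890 points (-1.93 to -0.121). For NRF1 (GCGCATGCG), CRE (TGACGTCA) and ZNF143 (CTACAATTC) the differences of both classes from kept sites included 0.

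The strength of the peaks in brain and lung was tied to the rule and is described without a test. Brain-lost sites had a median wild-type brain pileup of 32 (8 to 120) and lung-lost sites of 42 (9 to 167), against 75 at kept sites. In wild-type lung the order of the classes was reversed, with 94 at brain-lost (8 to 255) and 60 at lung-lost sites (11 to 225), against 136 at kept sites. Each class had a lower median than kept sites in all 3 wild-type organs, and between brain-lost and lung-lost sites the lower median was in the organ that lost the peak. After scaling each list to its own lowest background, no brain-lost site had a higher wild-type pileup in brain than in lung (0 of 636), against 129 of 674 lung-lost sites (19.1%) and 2.44% of kept sites. The median log2 ratio of wild-type brain to wild-type lung was -1.60 at brain-lost, -0.63 at lung-lost and -0.98 at kept sites.

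In the organ that kept its peak, the mutant peak was low. Lung-lost sites had a median pileup of 24 in mutant brain (8 to 154) against 79 at kept sites, and brain-lost sites 29 in mutant lung (7 to 180) against 92. On the background-scaled log2 scale, the median of mutant over wild type was -0.94 in brain at lung-lost sites and -0.01 at kept sites. In lung it was -1.43 at brain-lost and -0.32 at kept sites. The interquartile ranges of members and kept sites did not meet in lung (-1.94 to -0.88 against -0.84 to 0.01) and overlapped slightly in brain (-1.48 to -0.46 against -0.56 to 0.41). Where members had a mutant heart peak the same ratio had a median of -0.60 at the 42 brain-lost and -0.36 at the 18 lung-lost sites, against -0.25 at kept sites with one, but these are only the members that passed the caller. Of them, 39 of 42 and 14 of 18 were lower in mutant heart, against 73.0% of kept sites.

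**Figure D4:**
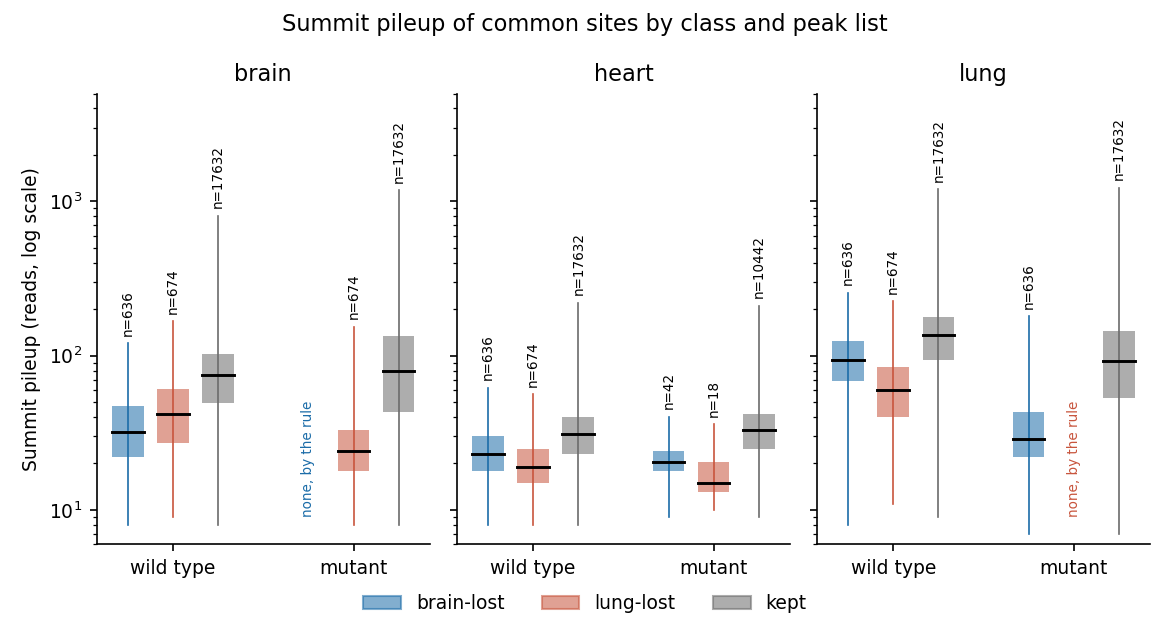
Summit pileup (reads, log scale) in wild-type and mutant brain, heart and lung at brain-lost, lung-lost and kept sites with a peak in the list; bars span the quartiles, black lines mark medians and thin lines the full range. Medians of both classes lie below those of kept sites in every list, with 32 against 75 reads in wild-type brain for brain-lost sites.

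The rule turns on whether a peak was called, so sites just inside and just outside it are given once. The mutant region nearest to the site in the lacking list was within 500 bp at 15 brain-lost and 16 lung-lost sites, and the median distance was 13639 bp and 19957.5 bp. The closest cases were a brain-lost site in an intron of Fancc with a mutant brain region 137 bp away, and a lung-lost site 162 bp from the start of Ppp3r1 with a mutant lung region 180 bp away. Next came a brain-lost site in an intron of Cabin1 (192 bp) and a lung-lost site in an exon 2640 bp from the start of 4933432I09Rik (211 bp). Just outside, the kept sites with the weakest mutant brain peaks were one 167 bp from the start of Tgfb2 (pileups of 17 in wild-type and 12 in mutant brain, with a -log10 q of 1.41) and one 21604 bp from Pdp2 (19 and 8, 1.43). The weakest mutant lung peaks were in an intron of Plxdc1 (16 in wild-type and 8 in mutant lung, 1.38) and near Slc25a25 (25 and 7, 1.52). The lowest -log10 q in the 6 lists lay between 1.30 and 1.34. Only 19 brain-lost sites had a mutant lung peak with a -log10 q under 5 (2.99%) and 53 lung-lost sites a mutant brain peak under 5 (7.86%), against 0.363% and 0.499% of kept sites.

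Members were spread over the genome. All chromosomes but Y had members of both classes. The share of a chromosome's common sites that were brain-lost ran from 2.02% on chromosome 8 to 5.29% on chromosome 16, and that of lung-lost sites from 1.996% on chromosome 10 to 5.31% on chromosome X, with overlapping intervals for most. The nearest other common site was a kept site for 90.3% of brain-lost and 86.1% of lung-lost sites, against 91.3% of kept sites. A lung-lost site had another lung-lost site as its nearest common site in 6.68% (5.03 to 8.82), while a kept site had one in 2.91%. For brain-lost sites the share with a brain-lost neighbour was 3.62% (2.42 to 5.37), close to the 3.12% of kept sites. Members stood somewhat farther from the nearest common site, with medians of 24448 bp for brain-lost and 28228 bp for lung-lost against 18582 bp for kept sites. Along the chromosome, 592 brain-lost and 598 lung-lost sites stood alone among common sites. Runs of 3 brain-lost sites lay at chr17:22352816-23570452, among the zinc finger genes Zfp944, Zfp946 and Zfp213, and at chr3:37219041-37324690 near Bbs12 and Il21. The longest run was 1 of 4 lung-lost sites on chromosome 18. Runs of 3 lung-lost sites lay at chr1:112451509-116478079 near Dsel and at chr4:97037690-97676355.

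Few genes of any kind had a member close by. Of all 21924 protein-coding genes, 218 (0.994%) had a brain-lost site within 10 kb of a start site, 244 (1.11%) a lung-lost site, and 33.5% any common site. The lists below are read against these shares, and their counts are too small to set a list apart. None of 30 forebrain regulators, 30 synaptic genes, 20 genes of chromatin architecture or 27 genes of the Wnt and Hedgehog pathways had a member so close, although 14, 11, 10 and 14 of them had a common site. Of 30 lung development genes, 17 had a common site and 1 a member, and of 30 cardiac genes 16 had a common site and 2 had members. The lung gene was Hopx, a homeodomain protein of alveolar type 1 cells and of the heart. Its lung-lost site, in an intron of Hopx 5734 bp from a start site, had pileups of 52 and 14 in wild-type and mutant brain, 29 in wild-type heart and 115 in wild-type lung. The cardiac genes were Tnnt2, cardiac troponin T, and Isl1, a LIM homeodomain factor of heart progenitors and motor neurons. The brain-lost site 7269 bp from Tnnt2, in an intron of the neighbouring gene Lad1, had 32 in wild-type brain, 29 in wild-type heart, and 103 and 23 in wild-type and mutant lung, and it carried an upstream motif with 1 mismatch at a gap of 5 bp. The lung-lost site 2623 bp from Isl1 had 27 and 21 in wild-type and mutant brain, 12 in wild-type heart and 42 in wild-type lung. Whether any of these genes changed in expression was not measured in the peak lists.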

How the data were processed

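CTCF ChIP-seq peaks of wild-type and Ctcf R567W/R567W brain, heart and lung were used, 1 library each. The 6 input libraries were not analysed here as such. Per the study's methods, the authors trimmed reads with Trim Galore, mapped them with Bowtie2 to a combined mouse (mm10) and human (hg38) genome, kept reads that mapped uniquely and used MACS2 with its default settings for peak calling. deepTools is also named in the submitters' processing notes. Which input served as control for which list is not given in the sources used here, and the recovered pileups (below) were whole numbers, not scaled by the added HEK293T chromatin. The deposited lists give a score, a fold ratio over local background at the summit, and −log10 p and −log10 q values.

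From these, the whole-number summit pileup and local background were recovered (100% of peaks solved, 100% of 4991 simulated peaks recovered). The simulated peaks did not cover the highest pileups or the higher local backgrounds of the wild-type lung list. Regions were merged with bedtools 2.31.1. Sites were centred on the wild-type heart summit, since the choice of members does not ask whether a mutant heart peak is present. A core motif matrix of 19 columns was learned from the 2000 most enriched peaks of wild-type brain (1986 contributed) and called on both strands at a match probability of 0.0001 (soft-masked genome GRCm38.p6, basic GENCODE M21 annotation). Of simulated sites, 99.0% of core and 98.7% of upstream motifs were found, and 7.9% of sites without an upstream motif gave one by chance. Over 25 features and 3 pairs of classes, 75 intervals were computed and 38 excluded 0, with no correction for their number. Distances and shares are at the heart summit. Analyses were run in Python 3.11.15 with scipy 1.17.1.

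The members and the gene lists were chosen with earlier results of these data known. Sites were named by a rule. In each class outside chromosome 18 these were the 5 with the best mean percentile rank of wild-type fold enrichment, the next 3 within 1 kb of a protein-coding start, the next 2 with a mutant heart peak, and the 2 with the nearest region in the lacking list, plus the 2 kept sites with the lowest mutant −log10 q in brain and in lung. The alternatives changed the q threshold, the overlap rule, list length, chromosomes, the centre, the motif and promoter limits, and matched sites for strength.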

Additional observations from a re-analysis of the deposited data

Results flagged for a closer look

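Brain-lost and lung-lost sites were compared for 25 features, and 8 of the Newcombe intervals of the difference excluded 0. The 2 classes come from the same contrast of genotypes, read in brain and in lung, and most sites of both also lacked a mutant heart peak. Brain-lost sites lacked a mutant heart peak less often, by a difference of -3.93 percentage points, and carried the core motif more often, by 6.22 points. They lay less often in promoters (-6.28 points), had a CpG pair in the core motif less often (-6.40 points) and lay less often over 100 kb from a start site (-4.67 points). The other 3 were the intergenic share (5.38 points, 0.0232 to 10.7), the share in promoters of protein-coding genes (-4.84 points, -7.47 to -2.28) and the YY1 motif (-0.890 points, -1.93 to -0.121). With the lists of an organ cut to equal length, the intervals for heart, core motif, promoter and CpG pair no longer did (-5.51, 1.69, 0 and -7.95 points), nor did the core motif difference at the stricter threshold (3.65 points) or the CpG difference with a −log10 q of at least 5 in the wild-type lists (-5.32 points). The intergenic, protein-coding promoter and YY1 shares and the share over 100 kb from a start site were not put through the alternatives. The sites of each class come from 1 library per organ and genotype, so organ, library and site class cannot be told apart.

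The local background that the peak caller wrote into the wild-type lung list was high under the members. Its median was 3.40 times the lowest background of the list at brain-lost sites and 2.55 times at lung-lost sites. At kept sites it was 4.93 times, so the rise was not particular to members. In the wild-type brain and heart lists and in the 3 mutant lists the medians at these classes lay between 1.00 and 1.22. The part of this background in the loss of lung peaks was not tested.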

How the results depend on the processing

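20 results were recomputed under 13 alternatives, which gave 199 values. Of these, 186 still excluded 0 in the same direction, still included 0 or, for counts, stayed within 1.5 times. Among the 186, the repeat difference between brain-lost and lung-lost sites turned from -2.33 to 0.320 points with sites centred on the wild-type brain summit. Its interval included 0 under either centre. The upstream motif differences from kept sites kept their direction and excluded 0 under every alternative that bears on them. They ran from 7.70 to 13.7 points for brain-lost and from 8.87 to 17.2 points for lung-lost sites. The same held for the heart differences from kept sites, from 29.3 to 62.9 and from 28.9 to 68.4 points. Most exceptions came from cutting the wild-type and mutant lists of an organ to equal length by −log10 q. This left 236 brain-lost and 118 lung-lost sites, and brain-lost minus lung-lost became -5.51 points for the missing heart peak, 1.69 points for the core motif, 0 points for promoters and -7.95 points for a CpG in the core motif. The repeat difference of brain-lost from kept sites fell to 1.34 points and the CpG difference of lung-lost from kept sites to -7.11 points. Each of these intervals included 0. Fewer sites enter under this setting, and the cause was not tested further. At the stricter core motif threshold the core motif difference between brain-lost and lung-lost sites was 3.65 points, with 0 in its interval. The same held for the CpG difference of -5.32 points between them with a −log10 q of at least 5 in the wild-type lists. The core motif difference of brain-lost from kept sites was -0.0570 points when kept sites were matched for wild-type fold enrichment, and turned to 0.280 points when they were matched for pileup, an alternative chosen after seeing the data. The latter also left the repeat difference of brain-lost sites at 2.51 points, with 0 in its interval. No library could be left out, since each organ and genotype had 1. No paired analysis was possible because the groups share only the replicate number 1, and the results compare classes of sites and come from no test between libraries. The CpG share was put through the alternatives after its values were seen.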
